A study of Caenorhabditis elegans with 2 samples.

Results

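Of the 1358 peaks in the irreproducible discovery rate (IDR) list of CEH-16 chromatin immunoprecipitation followed by sequencing (ChIP-seq), 235 had their summit within 1000 bp of annotated 5′ ends of protein-coding transcripts of at least 2 different genes, and these 235 peaks at shared promoters are the members described here. They made up 17.3% of the IDR list and 31.1% of its 755 promoter peaks, those with any such 5′ end within 1000 bp. The choice used the summit position and the Ensembl annotation of WBcel235 (ce11) and no signal value. The strands and order of the 2 nearest 5′ ends put 197 members in a divergent arrangement, in which the genes point away from each other, 34 on the same strand and 4 in a convergent arrangement. The 520 promoter peaks with 1 gene in the window are called single-gene promoter peaks, and the other 603 IDR peaks lay beyond 1000 bp.

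The factor was eGFP-tagged CEH-16, the engrailed-class homeodomain protein of Caenorhabditis elegans, carried by the strain OP82. Per the labels this strain has the unc-119(tm4063) III allele and the integrated transgene wgIs82, and both samples carry both. Whole L2 larvae of mixed sex were used, with 2 biological replicates and no second genotype, stage or treatment, so comparisons run between sets of peaks and between replicates. A peak from whole animals cannot be assigned to a cell type, and a transgene may differ from the native gene in level.

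In the compact worm genome many genes start back to back, so that the 5′ ends of a divergent pair flank 1 intergenic stretch from which both are transcribed. Such pairs often hold broadly expressed genes, for example those for ribosomal proteins, and the replication-dependent core histones are encoded as divergent pairs. CEH-16 is best known in this stage for its role in the seam cells, the stem-like cells of the epidermis, and engrailed-class homeodomains bind short AT-rich cores such as TAATTA.

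The windows of 6 members of high signal are shown first, since they are the DNA that the strongest shared promoters offer to the factor. They are the 4 divergent and the 2 same-strand members of highest signal among those whose whole peak lies outside every annotated gene and for which sequence is given here. Sequences were read from the RefSeq copy of WBcel235, plus strand, 5′ to 3′, and capitals mark the summit base and 10 bases to each side. The positions are chrIV:654859-655000 for rpl-15/K11H12.8, chrIV:4749993-4750140 for Y17G9B.5/rpl-20, chrII:8561368-8561489 for iff-2/F54C9.14, chrIII:13643579-13643874 for drr-2/set-16, chrV:10897225-10897520 for sec-61.G/F32D8.13 and chrIV:1659123-1659418 for rps-28/Y41D4B.4. The first 4 are divergent and the last 2 lie on the same strand.
rpl-15/K11H12.8: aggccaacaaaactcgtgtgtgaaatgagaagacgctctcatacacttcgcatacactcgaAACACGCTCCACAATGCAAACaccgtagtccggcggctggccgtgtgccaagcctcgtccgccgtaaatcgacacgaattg
Y17G9B.5/rpl-20: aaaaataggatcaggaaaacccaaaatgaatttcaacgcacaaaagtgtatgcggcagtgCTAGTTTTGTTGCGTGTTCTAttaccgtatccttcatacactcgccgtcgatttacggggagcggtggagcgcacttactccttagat
iff-2/F54C9.14: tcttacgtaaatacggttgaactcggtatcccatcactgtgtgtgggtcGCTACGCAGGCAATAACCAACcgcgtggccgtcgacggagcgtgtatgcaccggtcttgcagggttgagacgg
drr-2/set-16: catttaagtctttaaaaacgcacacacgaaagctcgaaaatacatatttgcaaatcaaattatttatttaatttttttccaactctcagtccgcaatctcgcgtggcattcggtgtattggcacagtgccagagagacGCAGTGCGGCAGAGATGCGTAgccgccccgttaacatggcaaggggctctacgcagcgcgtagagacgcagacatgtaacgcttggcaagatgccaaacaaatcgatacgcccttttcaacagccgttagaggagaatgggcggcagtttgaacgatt
sec-61.G/F32D8.13: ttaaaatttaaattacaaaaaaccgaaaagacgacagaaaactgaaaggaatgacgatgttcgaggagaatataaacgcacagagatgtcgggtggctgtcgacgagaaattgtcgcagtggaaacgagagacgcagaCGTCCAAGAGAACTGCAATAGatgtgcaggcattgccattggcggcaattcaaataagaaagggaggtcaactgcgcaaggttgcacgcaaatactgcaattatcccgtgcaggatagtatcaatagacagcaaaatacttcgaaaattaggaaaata
rps-28/Y41D4B.4: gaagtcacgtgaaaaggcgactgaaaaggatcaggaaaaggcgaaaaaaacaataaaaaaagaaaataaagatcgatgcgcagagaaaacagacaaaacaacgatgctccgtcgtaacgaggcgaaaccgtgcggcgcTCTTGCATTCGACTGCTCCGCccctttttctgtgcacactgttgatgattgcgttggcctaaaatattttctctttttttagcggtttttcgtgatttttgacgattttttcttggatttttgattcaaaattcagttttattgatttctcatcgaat
The GC content of these windows was 53.5%, 44.6%, 56.6% and 47.0% in the divergent members, in the order printed, and 41.9% and 39.2% in the same-strand members.

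A second set shows members whose window holds a homeodomain core, in capitals (TAATTA, or the variant TAATTG on either strand), chosen by the same rules with TAATTA first. Members printed above were left out, among them same-strand sec-61.G/F32D8.13, whose window also holds the core (caatta, not capitalised there). Those in this set are all divergent, at chrIII:11007752-11008047 for fipr-17/Y48A6B.3, chrII:14154397-14154692 for Y48B6A.1/rpl-43 and chrII:9891760-9892055 for vgln-1/C08H9.16.
fipr-17/Y48A6B.3: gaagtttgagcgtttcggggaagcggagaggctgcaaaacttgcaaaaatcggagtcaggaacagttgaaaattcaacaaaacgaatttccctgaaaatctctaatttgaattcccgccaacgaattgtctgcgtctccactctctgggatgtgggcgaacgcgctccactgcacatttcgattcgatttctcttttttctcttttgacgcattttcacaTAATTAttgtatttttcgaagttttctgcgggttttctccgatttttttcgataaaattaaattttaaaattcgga
Y48B6A.1/rpl-43: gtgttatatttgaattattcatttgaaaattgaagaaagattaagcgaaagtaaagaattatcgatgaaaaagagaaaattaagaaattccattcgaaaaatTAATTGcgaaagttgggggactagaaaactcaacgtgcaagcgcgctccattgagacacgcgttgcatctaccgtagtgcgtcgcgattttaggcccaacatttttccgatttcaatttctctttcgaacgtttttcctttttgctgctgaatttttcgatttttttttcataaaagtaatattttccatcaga
vgln-1/C08H9.16: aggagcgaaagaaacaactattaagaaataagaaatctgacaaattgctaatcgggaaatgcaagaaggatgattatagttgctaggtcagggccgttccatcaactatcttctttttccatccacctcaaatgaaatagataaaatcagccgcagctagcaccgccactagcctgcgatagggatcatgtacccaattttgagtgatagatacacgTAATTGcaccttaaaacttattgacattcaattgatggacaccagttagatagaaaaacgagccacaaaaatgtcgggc
The first base of the core lay 72 bp after the summit at fipr-17/Y48A6B.3, 46 bp before it at Y48B6A.1/rpl-43 and 69 bp after it at vgln-1/C08H9.16. None of these cores was at the summit itself.

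Summits fell in shared promoters more often than the share of such DNA among promoters. The share of promoter peaks that were members was 31.1% (95% Wilson interval 27.9% to 34.5%), while 12.9% of all annotated promoter bases, 5.33 of 41.2 Mb, lay within 1000 bp of 5′ ends of at least 2 genes. Among the intervals of the relaxed pooled list that overlapped no IDR peak, 2119 of 13182 promoter summits, or 16.1%, were at shared promoters. On the 1358 intervals of highest signal of 1 replicate at a time, the share was 26.4% in replicate 1 and 32.7% in replicate 2. All intervals on shares here are Wilson intervals and cover counting error only. Peaks are not replicates of a condition, so no p-value is attached to any share.

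The excess lay mostly with the divergent arrangement. Divergent members were 83.8% of all members (78.6% to 88.0%), beside 58.4% of shared promoter bases and 61.6% of the shared promoter summits in the pooled intervals outside the IDR list. Same-strand members were 14.5%, beside 35.6% of the bases, and convergent members were 1.70%, beside 5.97%. Expressed as density, there were 63.3 members per Mb of divergent shared bases, 17.9 per Mb of same-strand and 12.6 per Mb of convergent shared bases, against 14.5 single-gene promoter peaks per Mb of single-gene promoter bases and 10.2 IDR peaks per Mb beyond promoters. The density of same-strand members was thus close to that of single-gene promoter peaks over the whole genome, but not on its parts. It was 17.9 against 11.9 per Mb on the autosomes, with 31 same-strand members. On X it was 18.4 against 27.9 per Mb, with 3 same-strand members.

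**Figure D1:**
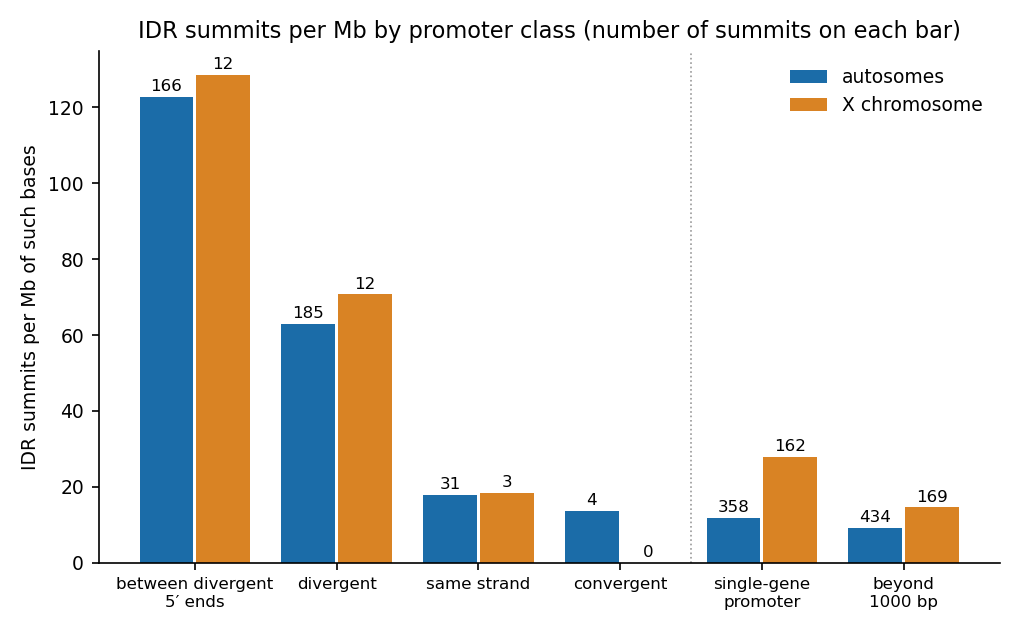
Density of IDR summits, in summits per Mb of bases of each class, on the autosomes and the X chromosome, with the number of summits on each bar; the 4 classes left of the dotted line are shared promoters. The stretch between divergent 5′ ends, a subset of the divergent class, has the highest density on both, 123 per Mb on the autosomes and 129 per Mb on the X chromosome.

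Within divergent pairs the summits lay in the space between the genes. In 178 of the 197 divergent members (90.4%, 85.4% to 93.7%) the summit was between both 5′ ends, while 46.5% of the divergent shared bases lie there. The density in that stretch was 123 summits per Mb. The nearer 5′ end was a median of 156 bp away and the second 352 bp, against 230 bp and 659 bp over all divergent shared bases of the annotation. At single-gene promoter peaks the 5′ end was a median of 289 bp from the summit, against 468 bp over single-gene promoter bases. Because the choice needs 2 ends within 1000 bp, distances at members are bounded by it.

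The 5′ ends of divergent members were a median of 496 bp apart (quartiles 320 and 768 bp, range 89 to 1697 bp). Over all divergent shared bases of the annotation, to which the same 1000 bp limit applies, the median gap was 528 bp, close to that of members. The 2556 divergent pairs of neighbouring genes in the annotation with outermost 5′ ends within 2000 bp had a median gap of 681 bp (quartiles 366 and 1156 bp). Of these annotated pairs, 204 had an IDR summit between the 5′ ends, a background of 7.98%. By gap, the share was 3.495% in pairs up to 250 bp apart (13 of 372), 12.5% from 250 to 500 bp (68 of 542), 8.34% from 500 to 1000 bp (69 of 827), 5.30% from 1000 to 1500 bp (26 of 491) and 8.64% from 1500 to 2000 bp (28 of 324). The intervals of the shortest class (2.05% to 5.89%) and of the class from 250 to 500 bp (10.02% to 15.6%) did not overlap, and the share did not keep rising with the length of the gap. Per kb between the ends the pairs up to 250 bp apart had 0.213 summits, those from 250 to 500 bp 0.340 and those from 500 to 1000 bp 0.115, against 0.102 over all pairs, so the shortest pairs were low per pair and above the whole per kb.

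Summits between divergent ends were not all midway. The nearer end lay at a median of 34.2% of the gap, 66 of 178 summits had the nearer end at 40% to 50% of the gap and 37 had it at under 20%. Among divergent members with gaps over 500 bp, the most central summit was at cdk-4/F18H3.1 on X, 376 bp from each 5′ end, with a signal of 28.3 in the pooled data, 8.56 in replicate 1 and 18.4 in replicate 2. cdk-4 encodes the cyclin D partner kinase of G1. The next were vgln-1/C08H9.16, which is printed above, and R06C1.4/wve-1, both at 48.7% of the gap. wve-1 encodes the WAVE subunit that activates Arp2/3 actin nucleation. Of the 19 divergent members with the summit outside the pair, 17 had it inside a gene body.

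**Figure D2:**
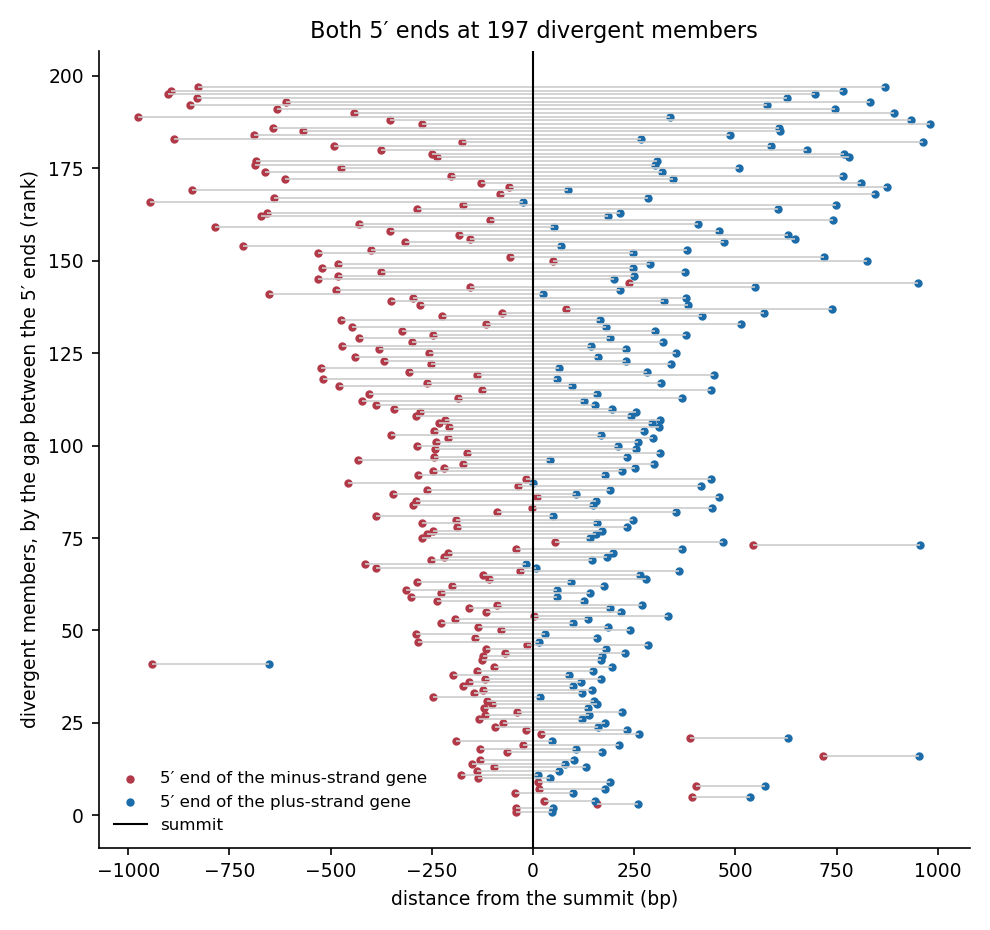
Position of both 5′ ends relative to the summit (0 bp) at the 197 divergent members, 1 row per member, ordered by the gap with the smallest at the bottom. Minus-strand ends (red) lie left and plus-strand ends (blue) right of the summit in all rows but the 19 whose summit is outside the pair.

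Among the 34 same-strand members, 13 summits lay upstream of both 5′ ends, 19 between them and 2 downstream of both. The nearer 5′ end was a median of 201 bp away and the second 767 bp. Gene bodies overlapped in 12 of the 34 same-strand pairs, in 8 of the 197 divergent pairs and in all 4 convergent pairs. By annotation, 195 of the 235 members (83.0%) had the summit in intergenic sequence, against 338 of the 520 single-gene promoter peaks (65.0%), and introns held 18 members (7.66%) against 134 single-gene promoter peaks (25.8%). UTRs held 18 members and coding exons 4. Over all IDR peaks 67.45% of summits were intergenic and 25.85% in introns. The intergenic share of shared and of single-gene promoter bases was not counted, so the part of gene arrangement in this contrast was not tested.

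**Figure D3:**
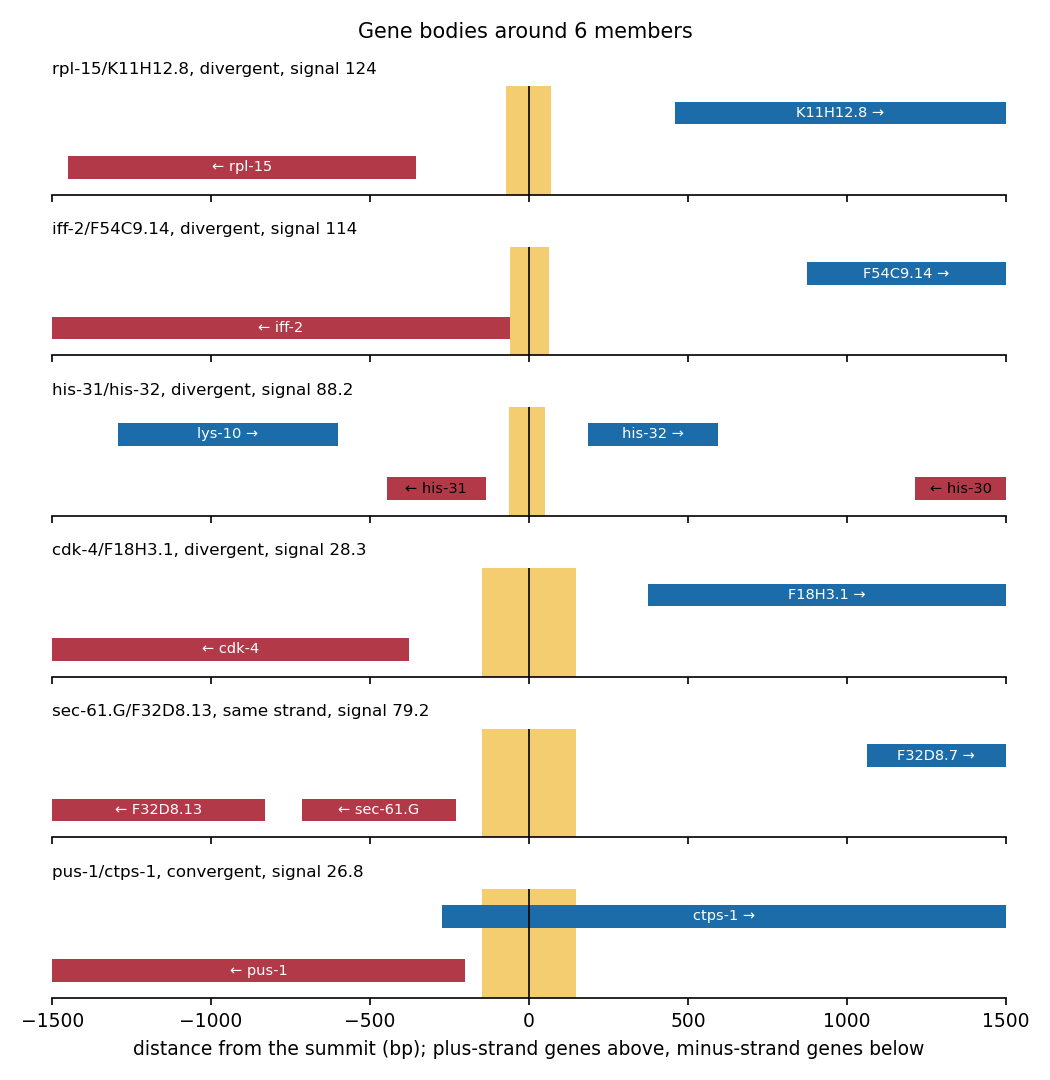
Gene bodies around 6 members, with the distance from the summit in bp on the axis; yellow is the IDR interval, the line the summit, blue plus-strand and red minus-strand genes (genes that only reach the outer edge are not drawn). Divergent summits lie in the open stretch between the genes, the sec-61.G/F32D8.13 summit lies upstream of both genes, and the pus-1/ctps-1 summit lies inside ctps-1.

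The signal of members, the value that the authors' peak caller gave each interval, was like that of other promoter peaks. Members had a median of 34.7 in the pooled data (quartiles 27.9 and 47.0, highest 124), 18.4 in replicate 1 and 21.04 in replicate 2. Single-gene promoter peaks had 32.9, 18.9 and 17.7 in the same order. The log2 difference of the medians was 0.08 in the pooled data, −0.04 in replicate 1 and 0.25 in replicate 2, so its direction was not shared by the replicates. Divergent members had a median pooled signal of 33.8, same-strand members 40.3 and convergent members 26.8. Of the members, 124 (52.8%) were above the median of all IDR peaks, 22 were among its top 100 and 2 among its top 10.

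A top peak is here an interval among the 1358 of highest signal in a replicate's own list. Members overlapped a top peak in both replicates in 124 of 235 cases (52.8%, 46.4% to 59.1%), which is at the background of all IDR peaks, 53.0%. The count was 103 of 197 for divergent, 21 of 34 for same-strand and 0 of 4 for convergent members. The replicates did not contribute alike. Members overlapped a top peak of replicate 2 in 191 cases (81.3%, 75.8% to 85.8%) and of replicate 1 in 156 cases (66.4%, 60.1% to 72.1%), whereas for single-gene promoter peaks the counts were 386 (74.2%) and 383 (73.7%) of 520. Over all IDR peaks the share was 73.9% in each replicate. The median log2 ratio of replicate 2 to replicate 1 signal was 0.19 over 234 members and −0.12 over 508 single-gene promoter peaks. The 2 replicate signals of members ranked weakly alike, with a Pearson r of 0.21 on log2 signal and a Spearman rho of 0.28 over 234 members, which were themselves selected by comparing ranks of the replicates.

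**Figure D4:**
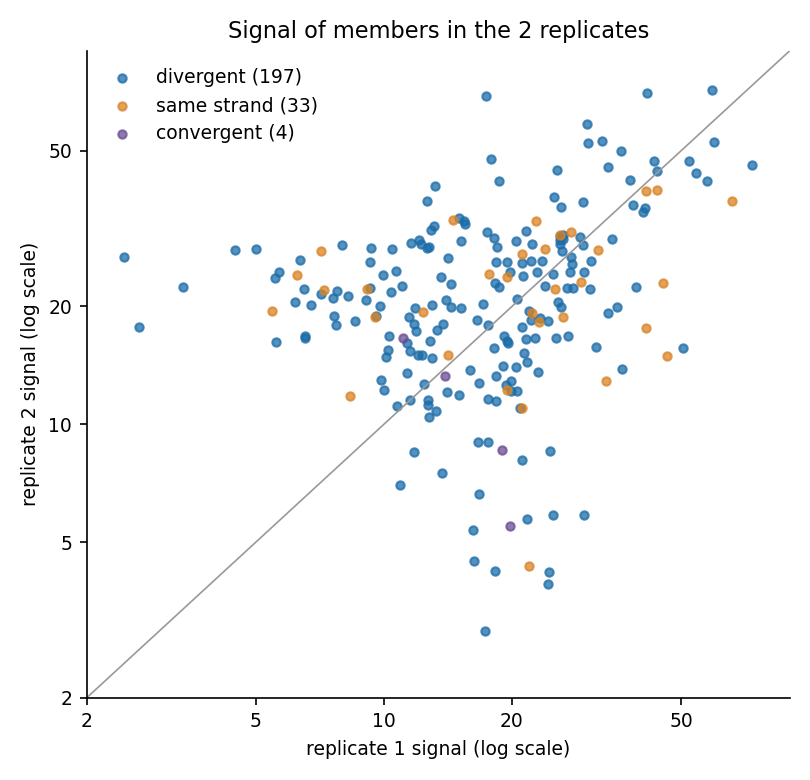
Replicate 1 signal (x) and replicate 2 signal (y), both on log axes, for the 234 members with an interval in both lists, coloured by arrangement; the grey line marks equal values. Points scatter widely on both sides of the line (Spearman rho 0.28).

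The members with the most unequal signals show how far single values can differ. At C41C4.9/chst-1 the signal was 2.45 in replicate 1 and 26.8 in replicate 2, at B0432.10/misc-1 it was 2.65 and 17.8, and at rpl-9/lpd-7 it was 3.37 and 22.4. misc-1 encodes a mitochondrial carrier and rpl-9 a ribosomal protein. In the other direction, rpl-7/rab-11.1 had 24.3 in replicate 1 and 3.91 in replicate 2, B0491.6/pigm-1 had 17.3 and 2.97, and atx-2/ecps-1 had 24.5 and 4.197. rab-11.1 encodes a recycling endosome GTPase and atx-2 the ataxin-2 RNA-binding protein. All 6 are divergent, and ribosomal protein genes stand at both extremes. At rpl-23/swp-1, a same-strand member, no interval of replicate 1 overlapped the peak.

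Ribosomal protein genes were the largest group at members. Of the 235 members, 34 (14.5%) had a ribosomal protein gene in the window, 29 of them divergent, against 12 of 520 single-gene promoter peaks (2.31%). Since a member has more genes than a single-gene peak, the same comparison per gene is 38 of the 481 distinct genes at members (7.90%, 5.81% to 10.7%) against 12 of 477 genes at single-gene promoter peaks (2.52%, 1.45% to 4.34%), beside 81 of 19973 protein-coding genes (0.41%). Over all protein-coding genes, 946, or 4.74%, had an IDR summit within 1000 bp, whereas 33 of 49 ribosomal protein genes in an annotated divergent pair had one (67.3%) and 17 of 32 outside such a pair (53.1%, 36.4% to 69.1%). The interval of the second share includes the first. Of 46 annotated divergent pairs with a ribosomal protein gene, 28 (60.9%) had a summit between the 5′ ends.

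The 4 ribosomal protein members of highest signal that have the gene among their 2 nearest are divergent. rpl-15/K11H12.8, at the gene of a large subunit protein, had the highest signal of all members, with 124 in the pooled data, 59.1 in replicate 1 and 71.5 in replicate 2. Y17G9B.5/rpl-20 had 116, 41.5 and 70.2, and rpl-12/lin-54 had 86.2, 29.96 and 58.4. lin-54 encodes the DNA-binding subunit of the DREAM complex, and hsr-9/rps-19, at 83.8, 43.9 and 44.4, pairs a small subunit protein with a 53BP1-like protein of the DNA damage response. Replicate 2 was above replicate 1 at all 4, by little at hsr-9/rps-19. In the 29 members with a ribosomal protein gene as only 1 of the 2 nearest genes, that gene was the nearer one in 13, so the summit was not mostly on its side.

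All 3 annotated divergent pairs in which both genes encode ribosomal proteins were members. rpl-39/rps-30 had a signal of 56.1 in the pooled data, 21.2 in replicate 1 and 25.9 in replicate 2, with the 5′ ends 239 and 260 bp from the summit. rps-14/rpl-36 had 45.4, 27 and 22.3, and rpl-24.1/rps-10 had 39.8, 24.3 and 18.4. The summit of each lay between the genes. A same-strand member, rpl-41.2/rpl-41.1 on chromosome I, also has 2 ribosomal protein genes and had 33.5, 6.26 and 24.1.

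Histone genes came next by number of genes, with 17 genes at 10 members. Core histones package DNA, and their genes are present in many near-identical copies. The 3 divergent histone pairs of highest signal were his-68/his-67 at 92.2 in the pooled data, 57.6 in replicate 1 and 41.8 in replicate 2, his-31/his-32 at 88.2, 30.1 and 52.3, and his-60/his-59 at 84.7, 36.1 and 49.9. his-4/his-3 had 78.8, 37.8 and 42.2. The order of these pairs differed between the replicates.

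The other histone pairs were weaker. his-62/his-61 had a pooled signal of 33.8, his-5/his-6 31.0 and his-64/his-63 25.3, and the values of his-5/his-6 and his-64/his-63 are uncertain, since 75.2% and 78.6% of the 31-base words in these peaks occurred once in the genome. In all 7 the summit lay between 5′ ends that were 237 to 369 bp apart. Of the 31 annotated divergent pairs of 2 histone genes, 24 had no IDR summit between the ends, and in 21 of these under 90% of 31-base words were unique (median 0%). Whether reads from such copies could be placed is not given in the sources used here, and an absent peak there cannot be read as absent binding. The 3 further members with a histone gene were his-37/C50F4.6, same strand, with a pooled signal of 71.1, wapl-1/htz-1, divergent, with 57.8, where htz-1 encodes H2A.Z, and mdf-1/his-35, same strand, with 24.7.

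Protein synthesis and folding were present beyond the ribosome. At iff-2/F54C9.14, whose gene iff-2 encodes translation factor eIF5A, the signal was 114 in the pooled data, 73.5 in replicate 1 and 45.9 in replicate 2, and the summit was 60 bp from the iff-2 end and 875 bp from the other. Translation factors had 6 members in all, against 5 single-gene promoter peaks, or 1.25% and 1.048% of the genes, among them rfc-4/eef-1A.1 at 58.7, eef-2/clsp-1 at 36.6 and eef-1B.1/aco-2 at 36.0, at genes of elongation factors. Chaperones had 12 members, against 4 single-gene promoter peaks, or 2.50% and 0.84% of the genes, with intervals that overlap. Of the 12, 10 had a top peak in both replicates, beside 53.0% of all IDR peaks. The counts were 20 of 34 for ribosomal protein members, 7 of 10 for histone members and 2 of 6 for translation factor members. The highest chaperone members were mig-5/cct-1 at 70.1, 38.6 and 36.3, Y22D7AL.10/hsp-60 at 56.1, 34.4 and 29.8, hsp-3/C15H9.5 at 53.8, 26.0 and 28.9, and Y55F3AR.2/cct-8 at 48.7, 20.5 and 29.5 in the pooled data, replicate 1 and replicate 2. cct-1 and cct-8 encode subunits of the cytosolic chaperonin, hsp-60 the mitochondrial chaperonin and hsp-3 an endoplasmic reticulum chaperone, and the replicates differed by less than 2 times at each of these 4 peaks.

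Further lists of broadly used genes had fewer members each. Of the genes at members and at single-gene promoter peaks, they were 1.87% and 1.048% for respiratory chain and ATPases, 1.46% and 0.21% for RNA polymerase and general transcription and likewise for splicing, 0.83% and 0.21% for the proteasome and likewise for mitochondrial ribosomal proteins, and 0.21% and 0% for aminoacyl-tRNA synthetases. The intervals of each of these pairs of shares overlap. Respiratory chain and ATPase genes had 9, led by C17H12.2/vha-8 at 44.0, atp-1/mcrs-1 at 41.8, atp-2/C34E10.10 at 33.6 and Y71H2AM.20/cox-6B at 31.9, where vha-8 encodes a vacuolar ATPase subunit and atp-1 and atp-2 encode the alpha and beta subunits of ATP synthase. Lists were made by gene symbol, and dlc-1/nduf-2.2 at 37.9 and ndub-8/cup-14 at 29.6 were not counted in this list. The replicates differed widely at both ATP synthase peaks, with 7.98 and 28.7 at atp-1/mcrs-1 and 24.6 and 8.53 at atp-2/C34E10.10 in replicates 1 and 2. RNA polymerase and general transcription genes had 7 members, led by rpb-11/W01G7.4 at 55.0, mdt-26/ift-43 at 49.8, taf-4/pqn-59 at 44.4 and rpb-3/pas-4 at 32.4. Splicing genes had 6, led by prp-8/bath-42 at 55.0 and rsp-6/C33H5.13 at 40, and including rsp-2/rsp-1 at 30.5, a divergent pair of 2 SR protein genes. Proteasome genes had 4, led by pbs-1/K08D12.3 at 35.3, mitochondrial ribosomal protein genes had 4, led by mrps-7/Y57G11C.3 at 56.0, and aminoacyl-tRNA synthetase genes 1, ears-2/uncp-18 at 27.6.

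Chromatin and cell cycle regulators made up small shares of the genes at members. Per gene, the histone modification and remodelling list was 1.25% at members and 0.84% at single-gene promoter peaks, and the G1 and cell cycle list 1.66% and 1.048%, with intervals that overlap. The 6 members of the histone modification and remodelling list were led by drr-2/set-16 at 89.7 in the pooled data, 52.3 in replicate 1 and 47.1 in replicate 2, where set-16 encodes an MLL-family H3K4 methyltransferase. nra-2/lin-53 followed at 54.8, 18.6 and 41.8, then tsr-2/set-26 at 45.3 and perm-3/swsn-6 at 40.6, and lin-53 encodes an RbAp48-like histone chaperone. The 8 members of the G1 and cell cycle list were cdc-14/ttc-4 at 38.4, acin-1/cdc-6 at 35.5, efl-1/fbxa-90 at 29.2, cdk-4/F18H3.1, lin-35/vps-51 at 28.3, cdk-5/kel-3 at 26.8, cdk-9/hxk-2 at 25.9 and pqn-21/cye-1 at 23.7. lin-35 encodes the Rb protein, efl-1 an E2F factor and cye-1 cyclin E. The list took every gene with a cdk- symbol, whatever its role, so cdk-5 and cdk-9 are counted by symbol only. All 8 were divergent and 3 had a top peak in both replicates, beside 53.0% of all IDR peaks. Their pooled signals ran from 23.7 to 38.4 with a median of 28.3, against a median of 34.7 over all members.

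Lists of developmental genes had at most 2 members each, and a share of peaks can count 1 gene several times. Per gene, the intervals at members and at single-gene promoter peaks overlapped for each of these lists but nuclear hormone receptors. None of the 21 genes of the seam and epidermal list was at a member, whereas 12 single-gene promoter peaks (2.31%) were at 5 of them. A count of 0 of 235 members allows a share of up to 1.28%, taken as 3 counts of the total and not as a Wilson limit. Only 1 of the 21 is in an annotated divergent pair. The GATA factor list had 0 members against 4 single-gene promoter peaks (0.77%). Nuclear hormone receptors had 2 members (0.85%), nhr-47/dnj-19 at 37.9 and H12C20.7/nhr-68 at 32.3, against 23 single-gene promoter peaks (4.42%). Homeobox genes had 1 (0.43%), ceh-38/malt-1 at 35.2, where ceh-38 encodes a ONECUT factor, against 6 (1.15%). Annotated divergent pairs hold 1 of the 12 GATA factor genes, 44 of the 270 nuclear hormone receptor genes and 10 of the 71 homeobox genes. By gene, 3 of the 44 receptor genes in such pairs (6.82%) and 18 of 226 others (7.97%) had an IDR summit within 1000 bp. For homeobox genes these were 1 of 10 (10%) and 3 of 61 (4.92%), and for both lists the intervals overlap.

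The heterochronic list, of genes that time larval stages, had 1 member (0.43%) against 9 single-gene promoter peaks (1.73%). By gene, 3 of 6 heterochronic genes in an annotated divergent pair (50%, 18.8% to 81.2%) and 6 of 11 others (54.5%) had an IDR summit within 1000 bp. The member, tag-340/nhl-2, had the fourth highest signal of all, with 111 in the pooled data, 59.7 in replicate 1 and 52.6 in replicate 2. nhl-2 encodes a TRIM-NHL protein that works with the microRNA machinery, and its 5′ end was 846 bp from the summit, against 577 bp for tag-340. Wnt genes had 2 members (0.85%), against 2 single-gene promoter peaks (0.38%), namely mig-5/cct-1, named above, and lev-9/mom-1 at 25.6, where mig-5 encodes a Dishevelled protein and mom-1 the Wnt acyltransferase. Cuticle collagens had 2 (0.85%), rpl-5/col-38 at 40.2 and the collagen pair col-3/col-117 at 24.7, against 12 (2.31%). Hedgehog-related genes had 2 (0.85%), pcn-1/wrt-5 at 43.4 and wrt-10/ZK1290.13 at 31.8, against 4 (0.77%), so for this list the shares were alike. Of the 187 cuticle collagen genes, 42 are in an annotated divergent pair. An IDR summit lay within 1000 bp of 3 of these 42 (7.14%) and of 10 of the 145 others (6.90%).

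**Figure D5:**
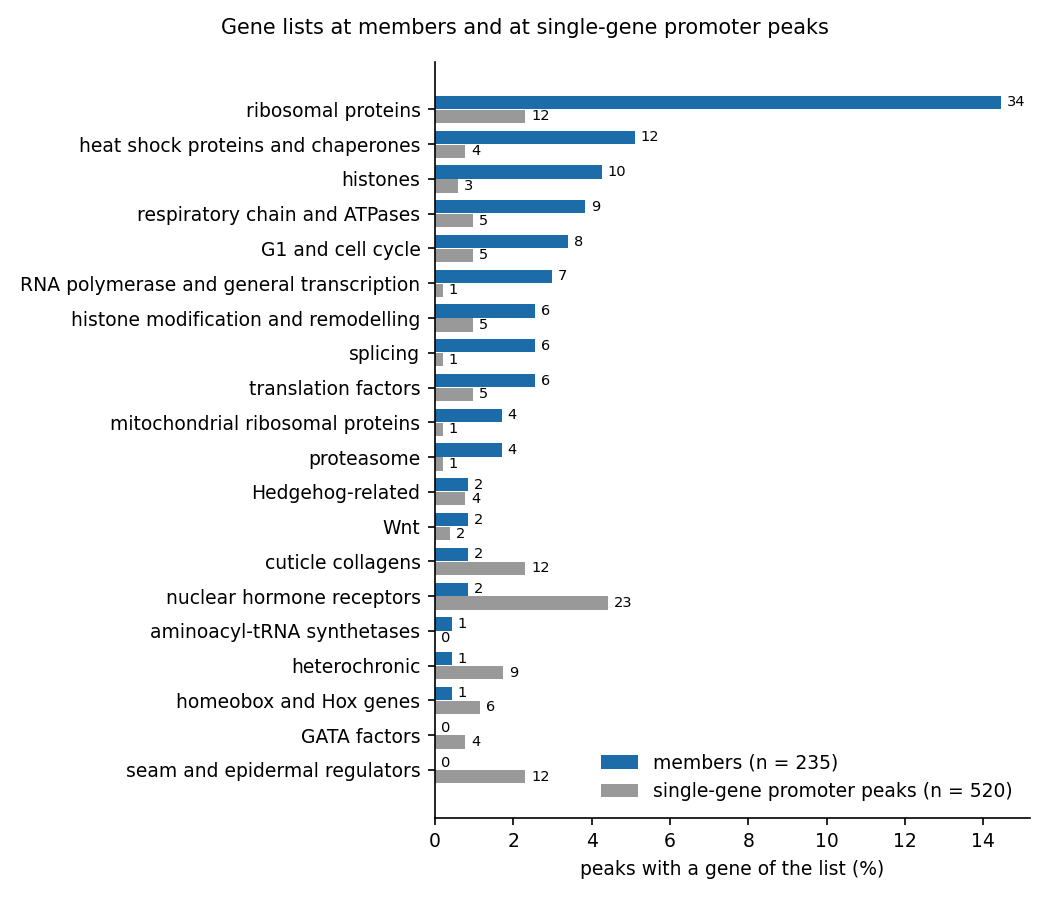
Share of members (blue) and of single-gene promoter peaks (grey) with a gene of each list, in percent, with the number of peaks beside each bar; a peak may count in several lists. Ribosomal proteins have the longest bar at members, with 34 of 235, and nuclear hormone receptors at single-gene promoter peaks, with 23 of 520.

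In all, 109 members (46.4%) had a gene of at least 1 of the 20 lists, against 101 single-gene promoter peaks (19.4%). Per gene the shares were 129 of 481 (26.8%) and 89 of 477 (18.7%), beside 6.58% of all protein-coding genes. Of the 20 lists, the per-gene intervals at members and at single-gene promoter peaks did not overlap for ribosomal proteins, for histones (3.53% and 0.63%) and for nuclear hormone receptors (0.42% and 3.98%). By gene, 17 of 65 histone genes in annotated divergent pairs (26.2%) and 3 of 16 others (18.8%) had an IDR summit within 1000 bp. The intervals of these shares overlap, as do those of nuclear hormone receptors inside and outside such pairs, given above. The part of gene arrangement in these contrasts was not tested. The other 126 members had no listed gene, though a list made by symbol can miss genes of its kind. Among the strongest of the 126 was tasp-1/K01G5.10, divergent, at the gene of the protease taspase, with 87.3 in the pooled data, 54.1 in replicate 1 and 43.9 in replicate 2. Pairs whose genes share a symbol prefix were 10 members, namely the 7 histone pairs, rsp-2/rsp-1, col-3/col-117 and rpl-41.2/rpl-41.1. The 9 divergent ones were 4.57% of divergent members, beside 6.96% of annotated divergent pairs.

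The highest same-strand member was egl-30/C53H9.4 on chromosome I, with 96.0 in the pooled data, 65.8 in replicate 1 and 37.1 in replicate 2 and with rpl-27 also in the window. egl-30 encodes the Gq alpha subunit, and a second member, at 53.6, 46.4 and 14.9, has the same 2 nearest genes. sec-61.G/F32D8.13, at the gene of the gamma subunit of the Sec61 translocon, had 79.2, 44.0 and 39.8. his-37/C50F4.6, named above, was next by signal. Below it were C33A12.3/C33A12.4 at 61.4, whose summit lies in an intron near the small nucleolar RNA gene smy-2, tub-2/Y71G12A.5 at 60.7, rpb-11/W01G7.4 at 55.0 and F59C6.18/nlp-4 at 53.0, where 68.8% of 31-base words were unique. Replicate 1 was above replicate 2 at both egl-30 peaks and at tub-2/Y71G12A.5 (41.4 and 17.6).

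The 4 convergent members were all weak. Y54E10BR.2/rpb-7 had 31.0 in the pooled data, 11.1 in replicate 1 and 16.6 in replicate 2, T28F4.4/T28F4.8 had 26.8, 18.97 and 8.61, pus-1/ctps-1 had 26.8, 13.95 and 13.3, and lelo-2/Y82E9BR.3 had 25.02, 19.8 and 5.49. rpb-7 encodes an RNA polymerase II subunit, pus-1 a pseudouridine synthase and ctps-1 a CTP synthase. All 4 were below the median signal of the IDR list.

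Members were spread over the autosomes and rare on X. Chromosomes I to V held 48, 37, 54, 46 and 35 members and X held 15 (6.38%, 3.91% to 10.3%), whereas 162 of the 520 single-gene promoter peaks (31.2%, 27.3% to 35.3%) were on X. X holds 6.71% of the shared promoter bases, and per Mb of such bases X had 42.0 members and the autosomes 44.3. Single-gene promoter peaks were denser on X, at 27.9 per Mb of single-gene promoter bases, against 11.9 on the autosomes. The share of promoter peaks that were members was therefore 8.47% on X (15 of 177) and 38.1% on the autosomes (220 of 578). Of annotated divergent pairs, 21 of 178 on X (11.8%, 7.85% to 17.4%) and 183 of 2378 on the autosomes (7.70%, 6.69% to 8.84%) had a summit between the ends, and these intervals overlap.

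A homeodomain core, searched as TAATTA or the variant TAATTG on both strands within 100 bp of the summit, was in 35 member windows (14.9%, 10.9% to 20.01%), near the background of 15.4% over all IDR peaks. Single-gene promoter peaks had it in 14.04%, midpoints of annotated divergent pairs in 26.3% and windows around points 200 bp upstream of protein-coding genes in 26.9%. TAATTA, which is part of the core count, was in 13 member windows (5.53%), against 6.35%, 12.3% and 11.8% in the same order. Member windows had a median GC content of 43.3%, against 45.5% at single-gene promoter peaks and 33.3% at the midpoints, and the part of base content in these shares was not tested. The match is of letters and shows no binding site.

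Of the 6 other words, each searched on both strands, 3 were more frequent in member windows than at the midpoints beyond the interval at members, and the share of the palindrome CACGTG was alike. GAGAGA was in 27.2% of member windows (21.9% to 33.3%), 41.2% of single-gene promoter windows (37.0% to 45.4%) and 12.6% of midpoint windows. GATAAG, the core bound by GATA factors, was in 5.11% of member windows (2.95% to 8.71%), against 10.96% (8.56% to 13.9%) and 8.92%. GGGCGG was in 15.3%, against 14.04% and 5.09%, CTGCGTCT in 11.1%, against 14.8% and 2.31%, CACGTG in 4.26%, against 6.15% and 3.83%, and TATAAA in 11.5%, against 10.8% and 26.8%. Over all IDR peaks GAGAGA was in 40.8% and GATAAG in 12%, both above the intervals at members. GGGCGG was in 11.8% of all IDR peaks, CTGCGTCT in 12.7%, CACGTG in 5.97% and TATAAA in 10.5%, all inside the intervals at members. The part of base content, which differed between member and midpoint windows, was not tested. None of these words contains another, though matches may overlap at their ends.

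In 9 members (3.83%) under 90% of the 31-base words of the peak were unique, and 15 (6.38%) had a small RNA gene within 200 bp of the summit, against 17 (3.27%) and 37 (7.12%) of single-gene promoter peaks. The strongest of them, ZK1248.17/H41C03.3, had 81.5 in the pooled data, 43.2 in replicate 1 and 47.1 in replicate 2, but its summit lay outside the pair, near the small RNA gene sls-2.1, and 74.8% of its words were unique. The summit was 717 bp from the nearer 5′ end.

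The 1000 bp limit fell among ordinary peaks. Just inside it the second gene was 965 bp from the summit at C33A12.3/C33A12.4 (signal 61.4), 975 bp at C50B6.3/nasp-2 (39.8), 981 bp at gcy-33/cpr-9 (30.5), 991 bp at hsp-1/clec-196 (27.9) and 993 bp at icd-2/psf-3 (43.3). Just outside, it was 1002 bp at F13G3.10/mif-3 (30.9), 1005 bp at R107.5/cls-2 (25.1), 1016 bp at T10E9.2/T10E9.8 (25.6), 1017 bp at ubc-9/F29B9.7 (38.7) and 1026 bp at usp-39/nep-18 (23.9).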

How the data were processed

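Replicate ChIP-seq peak lists were used. Per the file headers, relaxed lists of both replicates were the input for IDR, and pooled and IDR lists derive from both. How reads were aligned and peaks were called is not given in the sources used here, nor is the IDR cut-off, and the control was not analysed here. The deposited lists give a signal per interval on the caller's scale and the −log10 of a q-value, which has 1 value in the whole IDR list and was not used to rank. Read depth is unknown, so precision per peak rests on the 2 replicates. Lists for ce10 were not used.

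Summits on ce11 were set beside the 5′ ends of protein-coding transcripts of Ensembl release 115. A worm 5′ end is often a trans-splice site. Promoter bases were counted on a grid of 10 bp, and lists overlapped by at least 1 bp. Of several intervals overlapping a peak, the one of highest signal was taken. Scripts ran in Python 3.11.15 with pandas 2.3.3 and were tested on simulated data. Gene lists were made by gene symbol, many by the prefix before the hyphen, so a gene with another symbol is not counted. Members, gene lists and named genes (the highest signals per class and list, same-prefix pairs, extremes and edge cases) were chosen with earlier results of these data known, and with 1 group no test was made. Alternatives were the window, the 5′ ends, stricter peaks, other lists and classes.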

Additional observations from a re-analysis of the deposited data

How the results depend on the processing

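The share of promoter peaks that were members was 25.9% with a 500 bp window and 40.5% with a 2000 bp window, beside 5.49% and 30.7% of promoter bases, and ranged from 26.4% to 32.7% with 1 replicate's top intervals left out at a time: 32.7% on replicate 2 alone and 26.4% on replicate 1 alone. Divergent members were 90.1% and 68.5% with these windows and 89.6% without pairs whose gene bodies overlap, and 80.1% and 83.0% on single replicates. A top peak in both replicates was found for 45.4% of members with the 500 bp window, 84.7% of those of higher signal and 79.6% with 2 times as many top intervals. The homeodomain core fell to 3.83% of windows with 50 bp to each side. Same-prefix pairs numbered 16 with the 2000 bp window and 5 of higher signal, and 62 members of higher signal had a listed gene, from fewer members (124). The other 46 of 59 values stayed within the 95% interval, the spread between replicates or 1.5 times, as did 88 of 120 counts for single lists. These tallies are lenient in places. The log2 difference of median signals, 0.08, was below its spread of 0.21, so a change of sign, as with the 500 bp window (−0.05), counted as within it. The GATA factor and seam lists counted as unchanged with 0 members in every setting. No paired analysis was possible because there is 1 group. Depth is unknown, and 2 replicates of whole larvae limit every signal value.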
